A study of Mus musculus with 17 samples.

Results

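The genes described here are 10 members of the Hedgehog and parathyroid hormone-related protein (PTHrP) pathways, taken by name from the 55335 genes counted in every library, and all 10 passed the filter on low counts in each fit. They are the ligands Ihh and Pthlh, the receptors Ptch1, Smo and Pth1r, the inhibitors Hhip and Sufu, and the transcription factors Gli1, Gli2 and Gli3. Their transcripts were measured by bulk RNA sequencing of osteoprogenitor cells (OPCs) and skeletal stromal cells (SSCs) sorted from the bone fraction of littermate female mice aged 8 to 12 weeks. Mice were wild type (WT, Cxcr4+/+), heterozygous (+/1013) or homozygous (1013/1013) for a knock-in allele of the chemokine receptor Cxcr4 that truncates its intracellular tail, as in the immunodeficiency WHIM syndrome, and yields a receptor that resists desensitization. The allele is carried by every cell of the animal, so an effect in sorted cells need not arise in them. No other allele or agent was used. There were 3 libraries for each of the 6 groups, except 2 for 1013/1013 SSCs, and each library was made from cells pooled from 3 mice, so p-values measure the spread between pools. All cells were negative for CD45, Ter119 and CD31. SSCs were Sca-1+ CD51+ PDGFRα+, and OPCs were Sca-1- CD51+ with or without PDGFRα.

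Indian hedgehog, encoded by Ihh, is secreted by prehypertrophic and hypertrophic chondrocytes of the growth plate. It binds the receptor encoded by Ptch1, which then releases the transducer Smo from inhibition, and GLI factors pass from repressor to activator forms. Ptch1, Gli1 and Hhip are themselves GLI target genes, and Ptch1 and Hhip encode proteins that bind the ligand and limit its reach. PTHrP, encoded by Pthlh, acts through the receptor encoded by Pth1r, keeps chondrocytes proliferating and is driven by Ihh in a feedback loop of the growth plate. Pth1r is also a receptor for parathyroid hormone on osteoblasts and their progenitors.

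OPC libraries held 64099849 to 92683497 counts on genes and SSC libraries 44217695 to 50509592, so a count of 0 allows up to 3 counts, or 0.0324 to 0.0678 CPM (the count scaled by the library total). Values below are CPM normalized by the trimmed mean of M values (TMM) over all 17 libraries, unless another scale is named. The sorting label Sca-1 was borne out by Ly6a, at 0.568 to 12.4 in OPCs and 390 to 1444 in SSCs. Gene counts cannot show the truncating allele, so the genotype labels were not checked. The osteoblast transcription factor Sp7 was at 169 to 396 in OPCs and 0.0365 to 34.4 in SSCs. OPC libraries also carried abundant transcripts of cartilage: the 16 chondrocyte markers summed to 20369 to 130387 in OPCs and 3364 to 21393 in SSCs, and Col2a1 alone reached 9569 to 69882 in OPCs against 3.50 to 3339 in SSCs. In these bulk samples, fewer cells of a type and less RNA per cell cannot be told apart. Leukocyte markers stood highest in WT OPC replicate 3, 1013/1013 OPC replicate 2 and WT SSC replicate 3 (3287 to 9705 summed CPM, against 40.5 to 887 in the other libraries). WT SSC libraries differed from the mutant SSC libraries in the share of reads outside genes (3.68% to 4.15% against 1.504% to 2.69%) and in genes detected (21449 to 22599 against 15748 to 19227), and this difference and the genotype cannot be told apart.

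The RefSeq promoter table (GRCm38.p6) held 9 of the 10 members, in 11 windows since Pth1r has 3 start sites. It held none for Gli1, a GLI target, whose promoter was therefore not searched. The Ptch1 window lies within the annotated gene, whose upstream end is at 63573598, so bases before that end were not searched. The 250 bases before the start site are shown for Ptch1 and Hhip, GLI target genes that were both lower in SSCs than in OPCs, and for Pth1r and Pthlh, the receptor and the ligand that differed in opposite directions. They lie at chr13:63565736-63565985, chr8:80058009-80058258, chr9:110747146-110747395 (the most upstream start) and chr6:147264014-147264263, all on the minus strand, and are written 5′ to 3′ with capitals for any match to the motifs searched.
Ptch1: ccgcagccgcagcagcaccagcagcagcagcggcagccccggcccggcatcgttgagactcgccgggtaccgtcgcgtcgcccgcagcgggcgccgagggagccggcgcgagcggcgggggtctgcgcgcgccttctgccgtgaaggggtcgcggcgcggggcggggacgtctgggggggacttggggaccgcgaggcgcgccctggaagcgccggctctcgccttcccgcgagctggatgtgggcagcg
Hhip: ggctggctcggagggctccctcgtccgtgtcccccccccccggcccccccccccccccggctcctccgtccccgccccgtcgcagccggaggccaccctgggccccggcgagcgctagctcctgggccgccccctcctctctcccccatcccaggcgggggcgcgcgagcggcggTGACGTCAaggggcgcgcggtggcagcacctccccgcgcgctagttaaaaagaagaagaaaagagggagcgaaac
Pth1r: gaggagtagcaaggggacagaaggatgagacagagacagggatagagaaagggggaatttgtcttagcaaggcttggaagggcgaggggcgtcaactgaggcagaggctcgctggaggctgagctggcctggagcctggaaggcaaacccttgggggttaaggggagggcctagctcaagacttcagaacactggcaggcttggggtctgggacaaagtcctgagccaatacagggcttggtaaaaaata
Pthlh: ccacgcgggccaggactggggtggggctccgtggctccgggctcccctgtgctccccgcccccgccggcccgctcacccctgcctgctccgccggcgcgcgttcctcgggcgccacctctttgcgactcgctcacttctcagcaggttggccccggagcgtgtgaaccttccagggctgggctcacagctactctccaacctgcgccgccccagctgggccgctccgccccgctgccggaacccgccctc

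The motifs were searched on both strands. The GLI motif GACCACCCA stood in 0.225% of 32851 promoter windows of the same length and its core CCACCCA, which it contains, in 8.11%, and neither was found in a window of the members. The cAMP response element TGACGTCA, a motif of transcription factors activated downstream of PTH1R, stood in 1.55% of all windows and in that of Hhip, where it begins 75 bases before the start. The RUNX motif TGTGGT stood in 14.0% of all windows and in that of Gli3. These are matches of letters, and binding was not measured.

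The comparison of SSCs with OPCs asked in which of the sorted populations each arm of the pathways was transcribed. Averaged over the genotypes, 6 of the 10 members differed by edgeR's quasi-likelihood test (Benjamini-Hochberg adjusted p below 0.05, and a change of 1.5-fold or more), where 30.2% of the 20238 genes tested did (15.3% higher and 14.9% lower in SSCs). Pthlh was higher in SSCs, and Ihh, Pth1r, Ptch1, Hhip and Smo were lower. Sufu, Gli1, Gli2 and Gli3 did not pass. The median log2 difference of the members was -0.89, against -0.04 over all genes. Only Pth1r and Pthlh had no overlap between all 9 OPC and all 8 SSC libraries (10.8% of genes had none), each with a two-sided exact permutation p of 8.23e-05, the smallest this design allows.

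**Figure D1:**
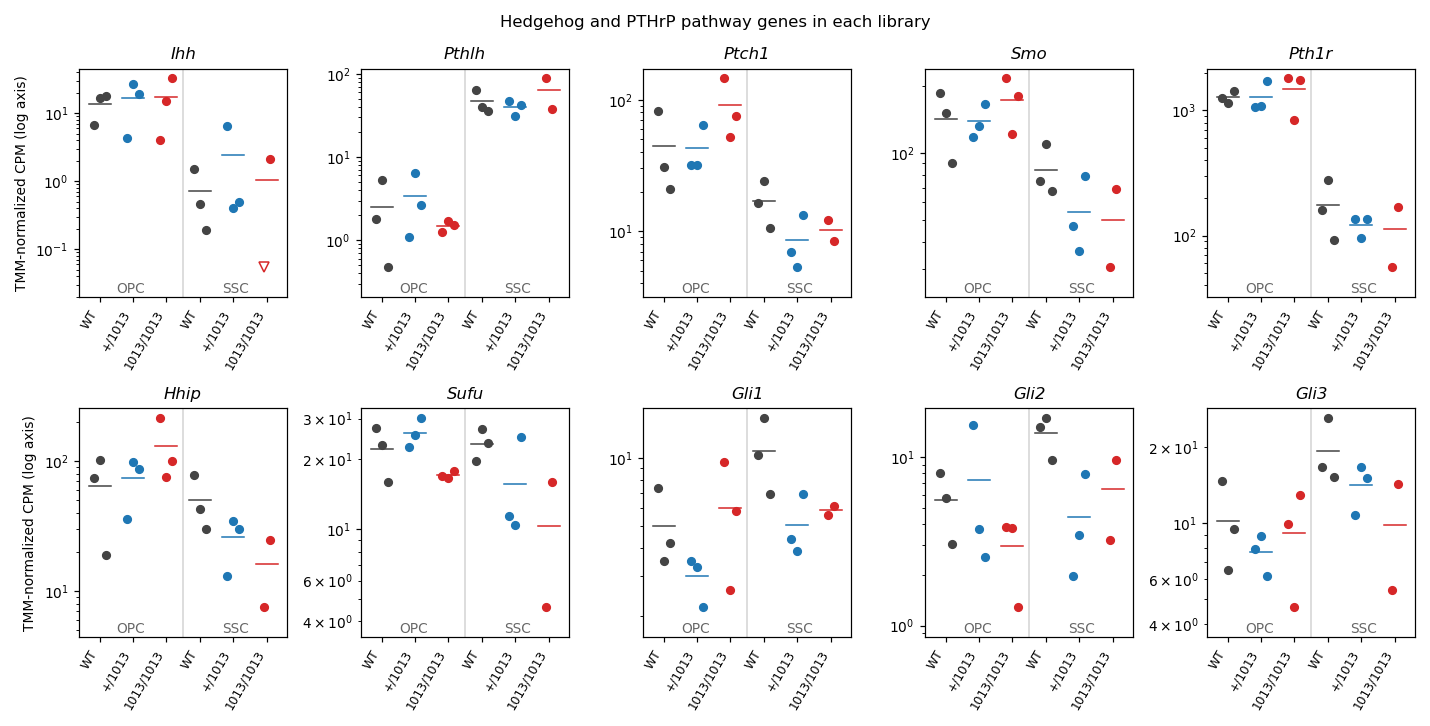
TMM-normalized CPM (log axis) of the 10 members in each of the 17 libraries, by cell type and genotype. Points are libraries, lines are group means, and the open triangle is the library with 0 counts of Ihh, drawn at its limit of 3 counts. Pth1r lay at 845 to 1813 in OPCs and 56.2 to 279 in SSCs, and Pthlh at 0.478 to 6.38 and 30.9 to 88.9.

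Among the ligands, Pthlh was far higher in SSCs. It was at 64.5, 39.9 and 35.9 in WT SSCs, at 47.3, 30.9 and 42.2 in +/1013 SSCs and at 88.9 and 37.9 in 1013/1013 SSCs. In OPCs it was at 1.81, 5.29 and 0.478 in WT, at 1.11, 6.38 and 2.64 in +/1013 and at 1.27, 1.72 and 1.51 in 1013/1013. The lowest SSC library was thus well above the highest OPC library. The log2 difference was 4.39 ± 0.46 (SE), or 20.9-fold (edgeR adjusted p = 9.01e-06), and Pthlh passed within each genotype, with log2 differences of 4.19 ± 0.78 in WT, 3.57 ± 0.76 in +/1013 and 5.40 ± 0.85 in 1013/1013.

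Ihh showed the reverse pattern at a lower level and with a wide spread. It was at 6.78, 16.5 and 17.9 in WT OPCs, at 4.32, 27.1 and 19.1 in +/1013 OPCs and at 4.05, 15.0 and 32.8 in 1013/1013 OPCs. In SSCs it was at 1.53, 0.454 and 0.191 in WT, at 6.37, 0.402 and 0.490 in +/1013, and at 2.10 in 1013/1013 replicate 2, while replicate 1 held 0 counts, which allows up to 0.0548. A single SSC library, +/1013 replicate 1, overlapped the OPC range, with 373 counts against 0 to 113 in the other SSC libraries. The log2 difference was -3.70 ± 0.95 (edgeR adjusted p = 0.00858). Within a genotype the difference did not pass, with adjusted p-values of 0.0956 in WT, 0.227 in +/1013 and 0.165 in 1013/1013, although in WT and 1013/1013 the SSC libraries were all below the OPC libraries. Ihh did pass in WT with DESeq2 (adjusted p = 0.00753), with edgeR's bias-adjusted quasi-likelihood (0.0296) and with only the groups compared in the fit (0.0288), and in 1013/1013 with DESeq2 (0.0216). The size of the averaged difference rested on few reads, and without 1013/1013 SSC replicate 2, which leaves the library at 0 counts alone in its group, it was -6.71.

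Of the receptors, Pth1r differed most in level. It was at 1267, 1150.0 and 1427 in WT OPCs, at 1056, 1089 and 1710.3 in +/1013 OPCs and at 1813, 845 and 1749.6 in 1013/1013 OPCs. In SSCs it was at 160.1, 279 and 91.5 in WT, at 136, 95.6 and 135 in +/1013 and at 56.2 and 169.9 in 1013/1013. Every OPC library was above every SSC library. The log2 difference was -3.33 ± 0.30, or 10.03-fold (edgeR adjusted p = 2.56e-06), and it passed in each genotype (-2.87 ± 0.48, -3.40 ± 0.49 and -3.70 ± 0.59 in WT, +/1013 and 1013/1013). The call in 1013/1013 was lost with only the groups compared in the fit (edgeR adjusted p = 0.066). Pth1r overlaps Myl3 on the opposite strand, whose highest count was 681, and the kit does not mark strand.

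The Hedgehog receptor Ptch1 was at 82.1, 30.5 and 20.9 in WT OPCs and at 16.3, 24.2 and 10.5 in WT SSCs, ranges that overlapped. In +/1013 it was at 31.8, 31.6 and 64.4 in OPCs and 6.95, 5.34 and 13.3 in SSCs, and in 1013/1013 at 146, 51.8 and 75.5 in OPCs and 12.1 and 8.47 in SSCs, without overlap in either. The averaged log2 difference was -2.29 ± 0.35 (edgeR adjusted p = 0.000238). By genotype it was -1.40 ± 0.56 in WT, which did not pass (adjusted p = 0.124), -2.33 ± 0.57 in +/1013 and -3.15 ± 0.70 in 1013/1013, which did. With only the groups compared in the fit, the 1013/1013 difference did not pass (edgeR adjusted p = 0.0557). The call in +/1013 was lost without +/1013 OPC replicate 3 or +/1013 SSC replicate 1 or 2 (edgeR adjusted p = 0.0719, 0.07 and 0.0726), and that in 1013/1013 without either SSC library (0.0676 and 0.0526).

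Smo, the signal transducer that Ptch1 holds inactive, was at 186, 152 and 89.9 in WT OPCs, 118, 132.5 and 167 in +/1013 OPCs and 218, 122 and 180 in 1013/1013 OPCs. In SSCs it was at 74.7, 109.6 and 67.2 in WT, 47.2, 36.3 and 78.7 in +/1013 and 30.8 and 69.2 in 1013/1013. The WT ranges overlapped and the mutant ranges did not, against 35% of all genes without overlap between the cell types in +/1013 and 40.2% in 1013/1013. The averaged log2 difference was -1.32 ± 0.23 (edgeR adjusted p = 0.00068), with -0.78 ± 0.38 in WT (adjusted p = 0.201), -1.37 ± 0.38 in +/1013 (0.0308) and -1.79 ± 0.45 in 1013/1013 (0.0183). With only the groups compared in the fit, the 1013/1013 difference did not pass (edgeR adjusted p = 0.104). The call in +/1013 was lost without +/1013 OPC replicate 2 or 3 or +/1013 SSC replicate 1 or 2 (edgeR adjusted p of 0.0604 to 0.118), and that in 1013/1013 without SSC replicate 1 (0.19).

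Of the inhibitors, Hhip, a membrane protein that sequesters Hedgehog ligands, was at 74.2, 102 and 18.9 in WT OPCs and 79.0, 43.1 and 29.9 in WT SSCs. It was at 36.2, 98.8 and 86.6 in +/1013 OPCs and 13.2, 34.9 and 30.4 in +/1013 SSCs. In 1013/1013 it was at 216, 76.1 and 101 in OPCs and 7.57 and 24.7 in SSCs. The WT groups overlapped widely and the mutant groups did not overlap. The averaged log2 difference was -1.63 ± 0.41 (edgeR adjusted p = 0.00709). It was -0.37 ± 0.65 in WT, -1.50 ± 0.66 in +/1013 and -3.02 ± 0.83 in 1013/1013, and only the last passed (adjusted p = 0.0288). The 1013/1013 call was lost with only the groups compared in the fit (edgeR adjusted p = 0.098). That call was lost without 1013/1013 OPC replicate 1 (-2.46, edgeR adjusted p = 0.0754) or 1013/1013 SSC replicate 1 (-2.41, 0.226).

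Sufu, which tethers GLI factors in the cytoplasm, was at 16.0 to 30.2 in OPCs and 4.62 to 27.0 in SSCs, with an averaged log2 difference of -0.47 ± 0.25. The 3 GLI factors were close to each other and low. Gli1, a GLI target that reports pathway activity, was at 2.19 to 9.55 in OPCs and 3.89 to 15.0 in SSCs, with a log2 difference of 0.60 ± 0.30. For Gli2, the main activator, the ranges were 1.29 to 15.5 and 1.96 to 17.1 (0.57 ± 0.44), and for Gli3, the main repressor, 4.67 to 14.7 and 5.44 to 26.1 (0.63 ± 0.27). None of these 4 passed (edgeR adjusted p = 0.163, 0.137, 0.361 and 0.0849 for Sufu, Gli1, Gli2 and Gli3). The estimate of Gli2 changed sign between genotypes, at 1.31 ± 0.75 in WT, -0.72 ± 0.74 in +/1013 and 1.11 ± 0.81 in 1013/1013.

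**Figure D2:**
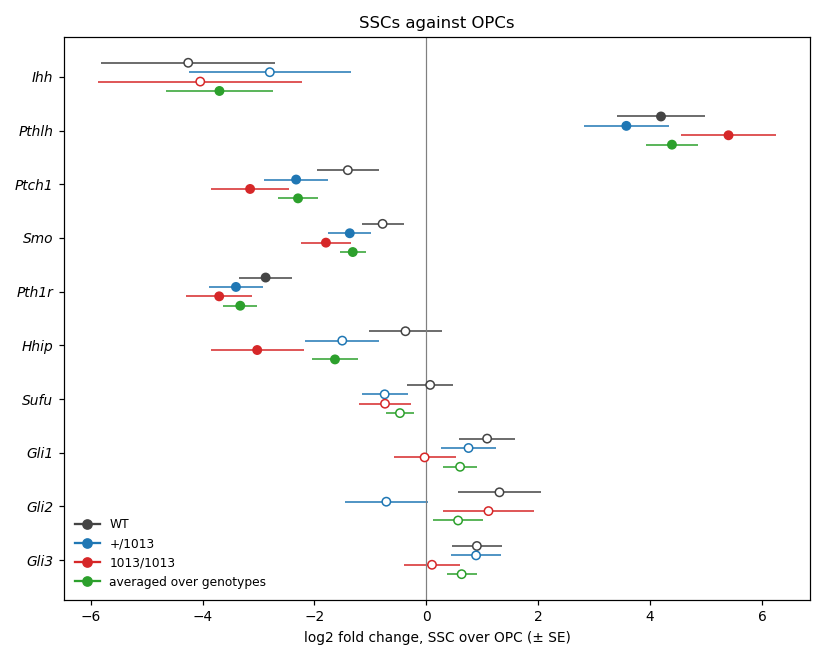
Log2 fold change of SSCs over OPCs for the 10 members within each genotype and averaged over genotypes. Points are edgeR estimates, bars are SEs, and filled points passed the test. Pthlh lay at 3.57 to 5.40 and Pth1r at -3.70 to -2.87 over the 3 genotypes, and filled points for Ptch1 and Smo stand in the mutant genotypes and the average.

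Within genotypes, 2 members passed in WT (11.4% of genes did), 4 in +/1013 (12.5%) and 5 in 1013/1013 (13.1%). Libraries of the cell types did not overlap for 5, 7 and 7 of the 10 members in WT, +/1013 and 1013/1013, where 38%, 35% and 40.2% of genes had no overlap. The difference between genotypes in this contrast is tested with the interaction below, and no member passed there. The scaling mattered for the smaller differences. Collagen genes took much of the OPC counts (Col1a1 and Col1a2 together 16.1% to 38.7% in OPCs and 0.563% to 2.78% in SSCs), and with library totals in place of TMM the median log2 difference of all genes moved from -0.04 to 0.46 and the calls from 3094 higher and 3013 lower to 5539 and 1626. On that scale the same 6 members passed, with Smo at -0.80 and Hhip at -1.14, and Gli1 (1.10) and Gli3 (1.13) passed as higher in SSCs, while Sufu was at 0.04.

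Per length, as CPM of library totals per kilobase of exon, Pth1r was the most abundant member in OPCs of every genotype (349 ± 31.8 in WT, SD, n = 3). Smo followed at 20.7 ± 8.43 in WT, then Hhip (5.85 ± 3.86), Ihh (3.53 ± 1.39), Ptch1 (2.60 ± 2.10), Sufu (2.33 ± 0.763), Pthlh (1.26 ± 1.22), Gli3 (0.865 ± 0.404), Gli1 (0.815 ± 0.393) and Gli2 (0.667 ± 0.343). From Hhip downward, the ranges of neighbours in this order overlapped. In WT SSCs the order per length was Pth1r (81.6 ± 43.8), Pthlh (38.7 ± 11.1), Smo (20.2 ± 5.47), Hhip (7.46 ± 3.41), Sufu (4.14 ± 0.746), Gli1 (2.90 ± 1.09), Gli2 (2.74 ± 0.710), Gli3 (2.73 ± 0.842), Ptch1 (1.62 ± 0.645) and Ihh (0.313 ± 0.296). The ranges of Pth1r and Pthlh overlapped there, as did those of neighbours from Hhip to Ptch1. In 1013/1013 SSCs Pthlh (46.4 ± 30.5, n = 2) stood before Pth1r (42.8 ± 26.9), again with overlap. On this scale Smo had overlapping ranges in WT OPCs and WT SSCs, 11.8 to 28.6 and 16.9 to 26.5.

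Ratios of members within a library do not depend on the scaling. They were chosen after the values were seen and are given as a description. Per length, a library held 94.5 to 1652 Pth1r transcripts for each Pthlh transcript in OPCs and 0.350 to 3.88 in SSCs. The ratio of Ptch1 to Gli1 was 1.76 to 10.4 in OPCs and 0.484 to 0.761 in SSCs, without overlap between the cell types. The ratio of Hhip to Gli1 was 2.48 to 21.8 in OPCs and 0.746 to 4.94 in SSCs. Ptch1, Hhip and Gli1 are all GLI targets, and averaged over genotypes Gli1 did not share the direction of the other two. By genotype its log2 difference of SSCs from OPCs was 1.09 ± 0.50 in WT, 0.75 ± 0.50 in +/1013 and -0.03 ± 0.56 in 1013/1013, and none passed. Gli1 overlaps Arhgap9 on the opposite strand, whose count reached 2925, and reads in the stretch they share cannot be told apart by strand here.

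Hhip and Smo moved with the cartilage transcripts of the OPC libraries by Pearson's r, and no relation passed adjustment by Spearman's rho. Over the 9 OPC libraries, log2 values of each member were set against the log2 sums of the 16 chondrocyte and of the 12 osteoblast markers, in 20 relations chosen after the data were seen. With the chondrocyte sum, Pearson's r was 0.88 for Hhip (exact permutation p = 0.0011, adjusted 0.022) and 0.85 for Smo (exact permutation p = 0.00411, adjusted 0.0411), and Spearman's rho was 0.88 (exact permutation p = 0.00308, adjusted 0.0615) and 0.82 (exact permutation p = 0.0108, adjusted 0.108). Without the 2 libraries farthest from the median, +/1013 replicate 1 and 1013/1013 replicate 1, r was 0.81 for Hhip and 0.82 for Smo. For Ptch1 r was 0.76 with an exact permutation p of 0.0199 (adjusted 0.0993), and 0.64 without those 2 libraries. For Pth1r r was 0.63 and for Gli2 -0.61 (each with an adjusted exact permutation p of 0.2), and for Ihh, Sufu, Gli1, Gli3 and Pthlh it was 0.05 to 0.36. With the osteoblast sum, Ptch1, Smo and Hhip ran the other way, with r of -0.70, -0.56 and -0.46 (-0.90, -0.73 and -0.48 without those libraries), and none passed adjustment (exact permutation, adjusted p = 0.129, 0.263 and 0.422). The relation of Ihh with the osteoblast sum (r = 0.74) was 0.11 without those libraries and so rested on them. For deviations from the genotype means, with those libraries kept, it was 0.90. In WT too, replicate 1 held both the lowest Ihh and the lowest osteoblast sum of its genotype. For deviations from the genotype means, r with the chondrocyte sum was 0.84 for Hhip, 0.83 for Smo and 0.64 for Ptch1. It was also 0.69 for Sufu, 0.65 for Pth1r and 0.57 for Pthlh, so values of this size were not particular to Ptch1. For Ihh, Gli1 and Gli3 it was 0.22, 0.24 and 0.20, and for Gli2 -0.48. A single genotype, with 3 OPC libraries, was too small for a value of its own.

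**Figure D3:**
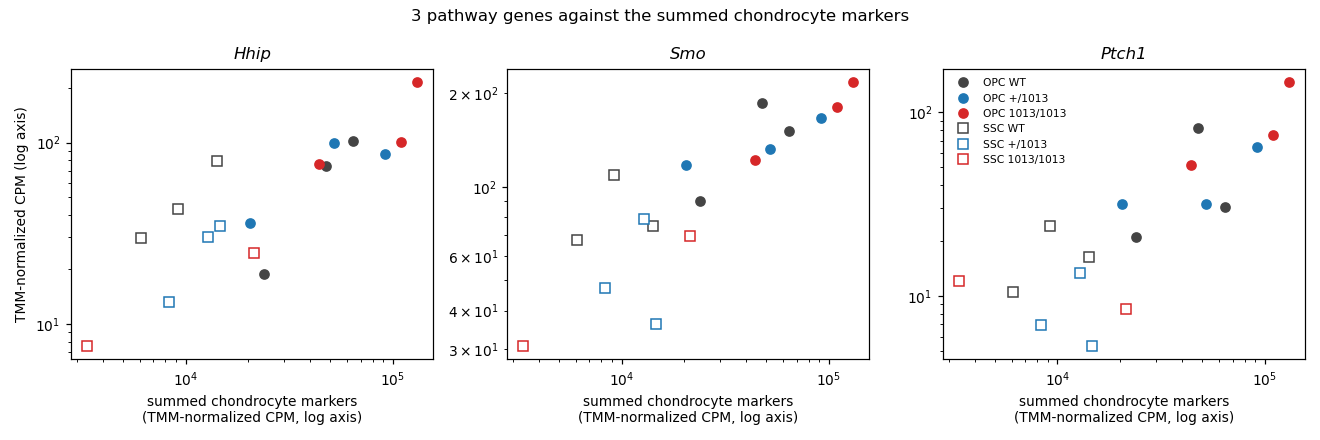
TMM-normalized CPM of Hhip, Smo and Ptch1 against the summed TMM-normalized CPM of 16 chondrocyte markers in each library (both log axes). Filled circles are OPC and open squares SSC libraries, coloured by genotype. Over the 9 OPC libraries Pearson's r was 0.88, 0.85 and 0.76 for Hhip, Smo and Ptch1.

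In SSCs, 15 of the 16 chondrocyte markers and 12 of 12 osteoblast markers were lower than in OPCs by the same test, so across the cell types the members lower in SSCs went with both lists. The part of these cells in the differences of Hhip, Smo, Ptch1, Ihh and Pth1r was not tested. In the SSC library with the most Ihh, +/1013 replicate 1, the chondrocyte markers took 0.985% of counts, within the 0.417% to 2.28% of the SSC libraries. In SSCs this sum did not follow most of its markers. Against WT, 15 of 16 had lower estimates in +/1013, while the summed values overlapped. The share therefore cannot show whether that library held more or fewer cartilage cells.

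The comparison of genotypes asked whether the Cxcr4 allele altered these pathways in OPCs. No member passed edgeR's test in +/1013 or 1013/1013 OPCs against WT, nor in 1013/1013 against +/1013 (0%, 0.00617% and 0% of 16207 genes passed). At an unadjusted p under 0.05 there were 0, 0 and 1 members, and DESeq2's Wald test also passed 0 in each. The largest log2 differences of 1013/1013 from WT were 1.04 ± 0.58 for Ptch1, 1.01 ± 0.65 for Hhip and -0.91 ± 0.76 for Gli2. Groups overlapped for all 10 members, where 7.68% of genes had none. The 3 highest values of Ptch1 among 1013/1013 and WT OPCs were 146, 82.1 and 75.5, and the highest belongs to 1013/1013 replicate 1, the library with the highest chondrocyte sum (12.4% of its counts). That library was also highest among all 9 OPC libraries for Smo, Gli1, Hhip and Pth1r. It was the lowest of the 9 for Ihh (4.05). Replicate 1 was also lowest for Ihh in WT (6.78) and +/1013 OPCs (4.32). In each genotype it had the lowest osteoblast sum and the highest sum of Sca-1+ fibroblast markers. The part of this shift in the values was not tested. Without 1013/1013 replicate 1, the differences from WT were 0.54 for Ptch1, 0.46 for Hhip and -0.24 for Gli1, in place of 1.04, 1.01 and 0.26.

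In +/1013 OPCs, Gli1 (3.489, 3.29 and 2.19) lay just below its WT values (7.33, 3.491 and 4.20), with a log2 difference of -0.75 ± 0.55, an exact permutation p of 0.1, the smallest possible for 3 against 3 libraries, and no call (5.26% of genes had no overlap). Sufu was at 16.98, 16.6 and 17.8 in 1013/1013 OPCs, below the 22.7, 25.4 and 30.2 of +/1013 OPCs (log2 difference -0.61 ± 0.23, edgeR adjusted p = 0.999, with 7.32% of genes without overlap) but within the 16.0 to 27.2 of WT OPCs. Pth1r in 1013/1013 OPCs had a log2 difference from WT of 0.20 ± 0.34, and its ranges overlapped.

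In SSCs the members leaned lower in both mutant genotypes, and no member passed. Of the 10 members, 9 had lower estimates in +/1013 and 8 in 1013/1013 than in WT, with median log2 differences of -0.62 and -0.79, against -0.11 and -0.23 over all genes. The 2 comparisons share the WT libraries, so they are not independent. Of 17659 genes, 0.0736% passed in +/1013 and 0% in 1013/1013 against WT, and 0% in 1013/1013 against +/1013. At an unadjusted p under 0.05 by edgeR there were 2, 1 and 0 members. DESeq2's Wald test passed 0 members in each, and its lowest adjusted p-values were 0.0526 (Gli1) and 0.068 (Gli2) in +/1013 and 0.0819 (Hhip) in 1013/1013 against WT. Over all genes DESeq2 also passed more than edgeR did, as given at the end. The differences in reads outside genes and in genes detected between WT and mutant SSC libraries, given above, run along the same groups.

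Several marker lists moved along the same groups, although no marker of the lists named here passed edgeR's test. In +/1013 and 1013/1013 SSCs against WT, estimates were lower for 15 and 15 of 16 chondrocyte markers (median log2 differences -3.31 and -2.75), for 11 and 9 of 12 osteoblast markers (-0.84 and -0.57) and for 10 and 9 of 10 leukocyte markers (-4.51 and -1.21). They were higher for 8 and 8 of 8 markers of Sca-1+ fibroblasts (1.19 and 1.32). Erythroid markers were lower for 7 and 7 of 7 (-1.27 and -1.05), and endothelial markers higher for 6 and 8 of 8 (0.74 and 1.52). Osteocyte markers and mural and muscle markers were split between the directions. The summed chondrocyte markers overlapped, at 6079 to 14175 in WT, 8350 to 14704 in +/1013 and 3364 to 21393 in 1013/1013 SSCs, while the summed osteoblast markers were at 18161 to 23718, 10478 to 12384 and 9326 to 14973. Mitochondrial transcripts took 0.127% to 0.403% of counts in WT, 0.337% to 1.01% in +/1013 and 0.642% to 2.36% in 1013/1013 SSCs. The part of these in the members' lower estimates was not tested.

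The lower estimates in +/1013 SSCs were led by Gli2, at 1.96, 3.45 and 7.90 against 15.2, 17.1 and 9.64 in WT (-1.66 ± 0.64, adjusted p = 0.25), and by Gli1, at 4.35, 3.89 and 6.90 against 10.3, 15.0 and 6.93 (-1.10 ± 0.44, adjusted p = 0.265). These were the 2 members without overlap (31.2% of genes had none), and for Gli1 the highest mutant and lowest WT library nearly touched. Ptch1 was at -1.001 ± 0.46, Hhip at -0.96 ± 0.56, Smo at -0.64 ± 0.39, Sufu at -0.59 ± 0.51, Pth1r at -0.54 ± 0.48, Gli3 at -0.45 ± 0.41 and Pthlh at -0.22 ± 0.37. Ihh alone was higher in the estimate, at 1.75 ± 1.86, and without +/1013 replicate 1 it was at -0.70.

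In 1013/1013 SSCs, Hhip was at 7.57 and 24.7 against 79.0, 43.1 and 29.9 in WT (-1.64 ± 0.66, adjusted p = 0.251). Sufu (-1.18 ± 0.59), Gli3 (-0.96 ± 0.47) and Gli1 (-0.85 ± 0.50) also had no overlap with WT, which made 4 of 10 members, near the 40.6% of all genes. With 2 against 3 libraries the exact permutation p cannot go below 0.2. Gli2 (-1.10 ± 0.72), Smo (-0.73 ± 0.44), Ptch1 (-0.69 ± 0.52) and Pth1r (-0.63 ± 0.55) overlapped with WT. Sufu passed at -2.35 and Gli3 at -1.83 only when 1013/1013 replicate 2 was left out, which leaves replicate 1, the library with the fewest genes detected, alone. Pthlh was at 88.9 and 37.9 in 1013/1013 against 64.5, 39.9 and 35.9 in WT (0.48 ± 0.41), and without replicate 1 its difference was -0.31. Ihh, at 0 counts and 2.10, gave 0.54 ± 2.01.

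**Figure D4:**
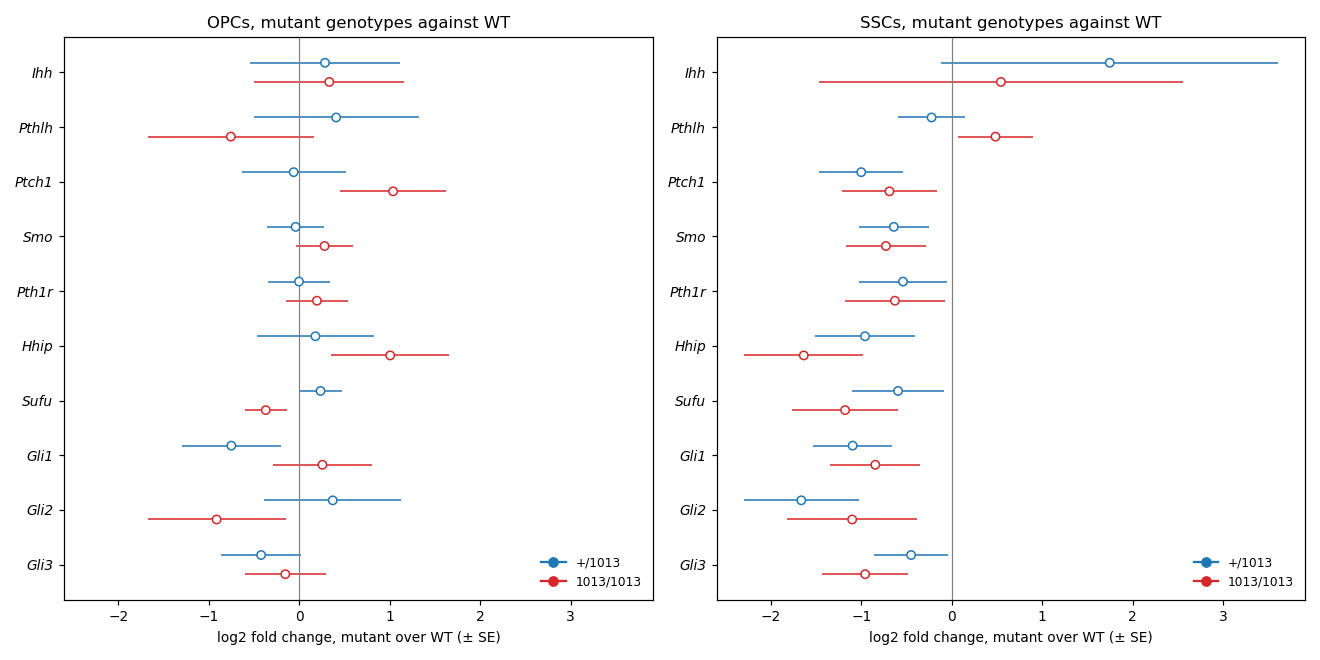
Log2 fold change of +/1013 and 1013/1013 over WT for the 10 members in OPCs (left) and SSCs (right). Points are edgeR estimates and bars are SEs, and open points did not pass the test. All points are open, and in SSCs 9 and 8 of 10 estimates lie below 0.

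The difference of the genotype effects between the cell types was tested directly in the fit of all 17 libraries. No member passed for +/1013 (0.084% of genes did) or for 1013/1013 (0.153%), with 0 and 1 members at an unadjusted p under 0.05 and 0 passed by DESeq2. The 1013/1013 effect in SSCs minus that in OPCs was -2.65 ± 1.01 for Hhip (edgeR adjusted p = 0.265), -1.75 ± 0.84 for Ptch1 and -1.01 ± 0.57 for Smo, against a median of -0.39 over all genes. For +/1013 it was -2.02 ± 1.05 for Gli2 and -1.13 ± 0.92 for Hhip, against -0.14 over all genes. So the larger SSC to OPC differences of Hhip, Ptch1 and Smo in 1013/1013 than in WT were not shown to depend on genotype.

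The rest of both pathways was read from lists written from knowledge of them. Of 13 genes for Hedgehog ligands, release and co-receptors, 11 were tested, and averaged over genotypes 5 passed as higher and 5 as lower in SSCs (15.3% and 14.9% of all genes did). The co-receptors Boc (60.8 in OPCs and 239 in SSCs), Cdon (29.4 and 95.3) and Gas1 (369 and 876, means) were higher in SSCs, with log2 differences of 1.94, 1.73 and 1.28. The glypican Gpc3 also passed as higher, with medians of 40.7 in OPCs and 189.7 in SSCs, where a 1013/1013 library stood far above the others at 1624 and WT SSCs (64.7 to 155) overlapped the OPC range (21.2 to 171). The ligand Dhh was at 1.55 to 10.1 in OPCs and 0 to 0.359 in SSCs, and the secreted release factor Scube3 at 0.395 to 8.22 and 0 to 0.454. Both passed as lower in SSCs, and no fold is given since 1013/1013 SSCs held 0 counts of either. Scube2, another release factor, was also lower (-3.54 ± 0.72). Shh and Pth, the gene of parathyroid hormone, had 0 counts in all 17 libraries.

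Of 20 tested genes for Hedgehog signal transduction and the cilium, 5 were higher and 2 lower, and 13 did not pass, a share near the 30.2% of all genes. The ciliary genes Evc (1.24 ± 0.20) and Arl13b (1.13 ± 0.23) and the kinase Ulk3 (1.08 ± 0.26) were higher in SSCs, and the kinase Dyrk2 (-1.03 ± 0.17) was lower. Of 15 Hedgehog target genes, 6 were higher and 1 lower, and 8 did not pass, beside 15.3% and 14.9% of all genes. Osr1 (3.99 ± 0.30), Osr2 (2.75 ± 0.36) and Foxd1 (2.31 ± 0.30), which encode transcription factors of mesenchyme, and Sfrp1 (2.00 ± 0.44), a secreted WNT inhibitor, were higher. The median log2 difference of the list was 0.34, so Ptch1 and Hhip did not stand with the middle of it.

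Of 24 tested genes for PTH1R ligands, receptors and signal transduction, 5 were higher and 5 lower in SSCs, beside 15.3% and 14.9% of all genes. Ramp2, which encodes a receptor activity-modifying protein that associates with PTH1R, was at a mean of 14.7 in OPCs and 127 in SSCs (3.13 ± 0.36). Prkar2b, a regulatory subunit of protein kinase A (-2.88 ± 0.56), Mef2c, a transcription factor of osteocytes and chondrocytes (-2.29 ± 0.31), and Gnas, which encodes the stimulatory G protein subunit (-1.91 ± 0.30), were lower. Gnas lies in a locus of overlapping transcripts, so its counts are uncertain. Of 15 PTH1R target genes, 6 were higher and 3 lower, beside the same shares. Il6 (5.09 ± 0.79), Ccl2 (4.34 ± 0.73) and Igf1 (3.00 ± 0.26), secreted factors that other signals also induce, and the nuclear receptor Nr4a3 (2.24 ± 0.71) were higher in SSCs, where Pth1r itself was lower. No gene of these 5 lists passed edgeR's test in any comparison of genotypes, where 0% to 0.0736% of all genes did. Calls by DESeq2, which passed more genes, are not given for these lists.

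**Figure D5:**
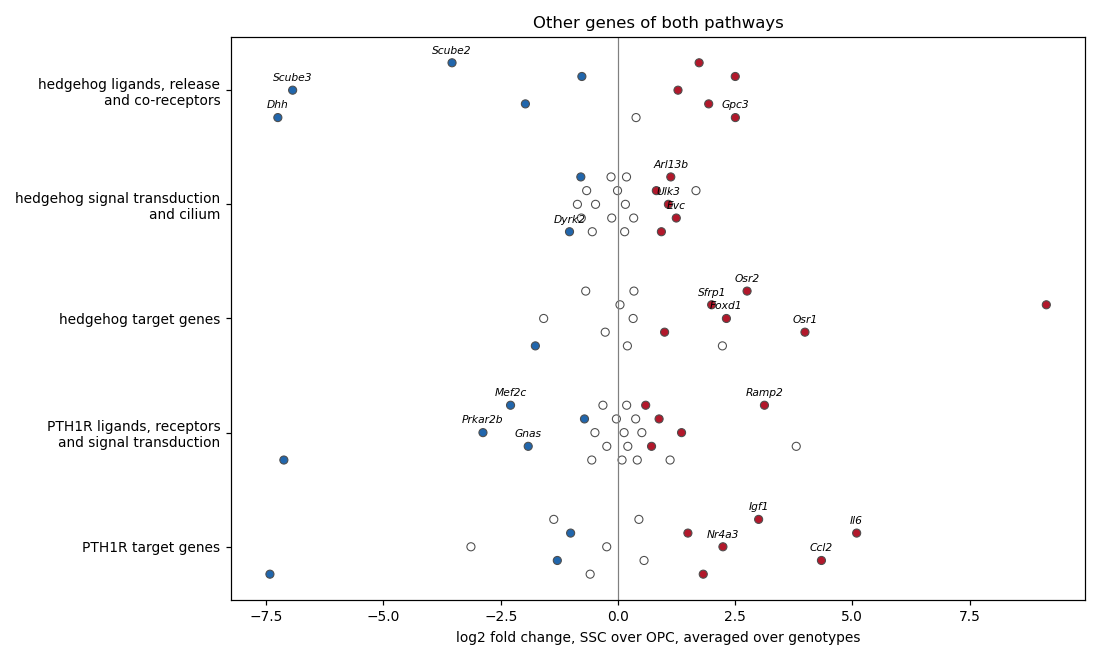
Log2 fold change of SSCs over OPCs, averaged over genotypes, for the tested genes of 5 lists of both pathways. Red points passed as higher and blue as lower in SSCs, open points did not pass, vertical offsets only separate points, and up to 4 genes are named in each list. Osr1 lay at 3.99, Il6 at 5.09 and Scube2 at -3.54.

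The genes whose pattern was most like that of a member were found by Pearson's r of log2(CPM + 1) over the 17 libraries among 11399 genes whose mean reached 5 CPM in a group, as a description, since the libraries share cell type and scaling. For Pth1r they were Gpc1 (r = 0.986), Slc35a2 (0.981) and Fkbp10 (0.978), with r of 0.847, 0.823 and 0.756 for deviations from the group means. For Ihh they were Cpox (0.962), Gpr180 (0.943) and Galk1 (0.943), with 0.936, 0.813 and 0.867. For Gli1 the values were lower, with Zfp513 (0.842), Akap8 (0.837) and Dtx3 (0.800), and 0.923, 0.698 and 0.877 for the deviations.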

How the data were processed

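The authors prepared cDNA from sorted cells (SMART-Seq v4) and Nextera XT libraries, which were sequenced from both ends. FastQC was used for quality, short reads were dropped, and STAR (mm10) and HTSeq gave reads per gene. Versions, annotation and counting settings are not given in the sources used here. The deposited values are whole-number counts per gene with no normalization. The 5 summary counters of HTSeq were left out, with 1.15% to 4.15% of reads outside genes. Of 55335 genes, 55154 matched GENCODE M21 by identifier, which gave symbols and exon lengths. Promoters are from RefSeq.

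Counts were fitted in R 4.3.3 with edgeR 4.0.16 (quasi-likelihood, TMM, filterByExpr, legacy setting), per cell type for genotypes and over 17 libraries for SSCs against OPCs and interactions. Passing required an adjusted p (Benjamini-Hochberg over all genes tested) below 0.05 and a 1.5-fold change. SE is the absolute log2 difference divided by the square root of F. DESeq2 1.42.0, other scalings and filters, and leaving out libraries were alternatives. The scripts were tested on simulated data. Limits of 3 counts cover counting error only, while SEs and SDs include the spread between libraries. The members and lists were chosen with earlier results of these data known. All members are named, and per list up to 4 passing genes of largest change with a mean of at least 1 CPM, with 3 genes most like Gli1, Pth1r and Ihh. Boc, Cdon, Gas1, Shh and Pth were named after their values were seen. Same-numbered libraries deviated together (every r over 0.1) for +/1013 OPCs with WT (0.135 to 0.505) and with 1013/1013 OPCs (0.177 to 0.339). They also did for +/1013 with 1013/1013 SSCs (0.205 and 0.228). With 2 libraries, the deviations of 1013/1013 SSCs mirror each other, so these values are not independent. The labels name no pairs, and the main fits used none. The replicate number entered only as a block in an alternative fit. In the other comparisons same-numbered libraries did not all deviate together, as for WT with 1013/1013 OPCs (0.421, -0.30 and -0.00443). Of all 24 pairs 11 were over 0.1, with r from -0.36.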

Additional observations from a re-analysis of the deposited data

How the results depend on the processing

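Over 82 values and 1559 alternative values, 1502 kept direction and call, 21 lost a call, 13 gained one, 14 reversed and 9 were counts of members that moved by more than 1.5 times. The cause of a change was not tested. Library totals, leaving out the leukocyte-rich libraries and leaving out 2 OPC libraries together were chosen after seeing the data. The number of members that passed between SSCs and OPCs, 6 averaged, was 5 to 8 over its alternatives. With library totals it was 4 in WT (2 with TMM) and 2 in +/1013 (4 with TMM). In 1013/1013 (5) it was 1 with only the groups compared, a fit with fewer samples, and 3 without +/1013 OPC replicate 1 and 1013/1013 OPC replicate 1. Leaving out a library gave 2 to 4 in +/1013, 2 to 6 in 1013/1013, and 0 to 2 for 1013/1013 against WT SSCs. With the replicate number as a block the counts were 6, 2, 3 and 5 for averaged, WT, +/1013 and 1013/1013. Smo in +/1013 was then at -1.37 with an edgeR adjusted p of 0.0525, and the block changed no other call. In the OPC and SSC comparisons whose same-numbered libraries deviated together, 0 members passed with the block and without it.

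Reversed with library totals were Sufu averaged (0.042) and Hhip in WT (0.35). Leaving out a library gave -0.85 to 0.13 for Hhip between cell types in WT, -0.24 to 0.62 for Gli1 in 1013/1013 against WT OPCs, and -0.44 to 1.56 for Pthlh in +/1013 against WT OPCs, which was -0.083 without the 3 libraries richest in leukocyte markers. In SSCs it gave, for +/1013 against WT, -0.70 to 2.90 for Ihh and -0.37 to 0.069 for Pthlh. For 1013/1013 it gave -8.43 to 1.69 (Ihh) and -0.31 to 0.92 (Pthlh) against WT, and -10.15 to 1.24 (Ihh) and -0.081 to 1.16 (Pthlh) against +/1013, the lowest Ihh values being those where a library with 0 counts stood alone for its group and varied, by assumption, like the others.

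Over all genes, DESeq2 passed 68, 65 and 77 in OPCs (0, 1 and 0 with edgeR) for +/1013 and 1013/1013 against WT and 1013/1013 against +/1013, and 1396, 1888 and 239 in SSCs (13, 0 and 0), with 504 and 1276 (17 and 31) for the interactions and 4092, 4496 and 5018 (2308, 2521 and 2642) between cell types in WT, +/1013 and 1013/1013. No member passed in a comparison of genotypes or an interaction by DESeq2. A fit of all libraries passed 145 and 212 genes in +/1013 and 1013/1013 SSCs against WT, and the fit of SSCs alone, without 1013/1013 replicate 2, passed 2931 for 1013/1013 against WT.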
